A study of Mus musculus with 20 samples.

Results

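Open chromatin was measured by ATAC-seq, which maps DNA that a transposase can reach, in LSK cells of mouse bone marrow. LSK cells lack lineage markers and carry Kit and Sca1, and they hold the stem cells and early progenitors of blood. The peaks described here lie in introns and within 10000 bp of the nearest annotated transcription start site: 17745 of the 125343 deposited peaks (14.2%) met both conditions of the deposited annotation. The control mice (WT) were +/+ with Vav-Cre, a recombinase driven in blood cells. The Idh mutants carried 1 Cre-activated allele with Vav-Cre: Idh1 R132H, Idh2 R140Q or Idh2 R172K. The fifth genotype was Tet2-/- (Tet2 KO), for which the labels give no Vav-Cre, so absence of Tet2 and absence of Cre cannot be told apart. All mice were C57Bl/6J and aged 3 to 4 months, and each genotype had 4 libraries, each from a pool of 2 mice, so that single animals cannot be separated.

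Introns near a start site hold many of the enhancers of a gene, and its first intron often carries the downstream edge of the open promoter. Factors such as Runx1, Gata2 and PU.1 bind such elements in blood progenitors. Mutant Idh1 and Idh2 enzymes make 2-hydroxyglutarate, which inhibits dioxygenases that use 2-oxoglutarate, among them Tet2, which oxidises methylated cytosine in DNA.

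Of the 17745 peaks, 9383 (52.9%) lay in the first intron of the annotated transcript, against 35.3% of intronic peaks 10 to 50 kb from a start and 24.9% of those farther away. Most, 11984, were downstream of the nearest start, and 5761 (32.5%) were upstream of it. The intron belonged to the gene of the nearest start for 77.4% of the downstream peaks but only 28.7% of the upstream peaks, so the nearest gene and the host gene often differ. The gene names used below are those of the RefSeq gene that contains the peak's centre, usually a coding gene (15431 peaks). The peaks had a median width of 498 bp, against 870 bp for promoter peaks. Among named genes, 3942 held at least 2 of these peaks. Maml3, a Notch coactivator, held 22, Gnaq, a G protein subunit, 18, and Fli1, a regulator of blood cells, and Runx2, a regulator of bone cells, held 16 each.

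A small class of these peaks reached back over a start site. RefSeq start sites lay inside 1115 of the peaks (6.28%), against 0.956% of intronic peaks at 10 to 50 kb and 55.9% of promoter peaks. The sequences that follow are the 150 bases just before the start site in 8 such peaks, from the RefSeq start windows of GRCm38.p6, printed 5′ to 3′ on the strand of the gene. They are the first 3 raised and the first 3 lowered in Idh2 R172K by p, and the first 2 lowered in Tet2 KO, among peaks that hold a whole start window. CG dinucleotides, the sites of DNA methylation, are in capitals so that CpG-rich and CpG-poor starts can be told apart.
Idh2 (raised in R172K; chr7:80115351-80115500, minus strand): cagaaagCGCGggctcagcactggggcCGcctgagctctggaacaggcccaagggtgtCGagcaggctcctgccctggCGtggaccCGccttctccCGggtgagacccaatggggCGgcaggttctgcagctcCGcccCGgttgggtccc
AI593442 (raised in R172K and in Tet2 KO; chr9:52679438-52679587, minus strand): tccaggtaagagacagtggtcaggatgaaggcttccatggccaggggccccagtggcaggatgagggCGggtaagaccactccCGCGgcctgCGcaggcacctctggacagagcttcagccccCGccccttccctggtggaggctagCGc
Slc16a12 (raised in R172K; chr19:34747329-34747478, minus strand): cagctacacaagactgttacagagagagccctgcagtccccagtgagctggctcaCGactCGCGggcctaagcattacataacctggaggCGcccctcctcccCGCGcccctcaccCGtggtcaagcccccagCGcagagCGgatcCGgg
Hsh2d (lowered in R172K; chr8:72189518-72189667, plus strand): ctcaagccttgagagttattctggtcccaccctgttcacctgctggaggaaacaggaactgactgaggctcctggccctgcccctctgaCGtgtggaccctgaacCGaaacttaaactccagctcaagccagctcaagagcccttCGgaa
Begain (lowered in R172K; chr12:109068218-109068367, minus strand): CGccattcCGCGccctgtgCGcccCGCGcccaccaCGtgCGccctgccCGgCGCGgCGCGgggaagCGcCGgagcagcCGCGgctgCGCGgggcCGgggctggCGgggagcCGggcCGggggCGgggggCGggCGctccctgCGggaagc
Ccl3 (lowered in R172K; chr11:83649379-83649528, minus strand): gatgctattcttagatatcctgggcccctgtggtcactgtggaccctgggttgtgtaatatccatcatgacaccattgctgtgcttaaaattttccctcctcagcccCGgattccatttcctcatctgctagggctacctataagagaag
Clec4e (lowered in Tet2 KO; chr6:123289872-123290021, minus strand): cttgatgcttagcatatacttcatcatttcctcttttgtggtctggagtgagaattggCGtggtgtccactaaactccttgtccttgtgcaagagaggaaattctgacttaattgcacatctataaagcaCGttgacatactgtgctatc
Tlr6 (lowered in Tet2 KO; chr5:64959167-64959316, minus strand): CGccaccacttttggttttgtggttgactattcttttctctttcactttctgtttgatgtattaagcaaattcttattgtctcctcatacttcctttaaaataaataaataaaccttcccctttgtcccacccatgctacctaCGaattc

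The printed stretches held 10 CpG at Idh2, 10 at Slc16a12, 6 at AI593442, 3 at Hsh2d, 1 at Ccl3, 2 at Clec4e and 2 at Tlr6. Begain was the exception among the lowered peaks, with 27. The peak over the start of Ccl3, a chemokine gene, had 33.4, 27.3, 24.6 and 22.8 CPM in WT and 5.08, 6.04, 5.95 and 5.46 CPM in R172K (log2 fold change -2.28, edgeR adjusted p = 6.69e-12). CPM is counts per 1000000 counts in peaks, with library sizes scaled by TMM. The peak over the start of Hsh2d, an SH2 adaptor gene of blood cells, fell from 24.8 ± 1.68 to 6.92 ± 1.49 CPM (SD, n = 4 each), with no overlap between the groups. The peak over the start of Clec4e, a C-type lectin receptor gene of myeloid cells, had 12.8, 13.5, 12.6 and 14.0 CPM in WT and 9.90, 8.96, 9.42 and 9.80 CPM in Tet2 KO (log2 fold change -0.48, edgeR adjusted p = 0.000217). At Tlr6, a Toll-like receptor gene, the means were 10.3 ± 0.802 CPM in WT, 6.60 ± 0.750 in Tet2 KO and 3.48 ± 1.10 in R172K (SD, n = 4 each).

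Over all start windows in these peaks, the 142 in peaks lowered in R172K had a median of 9 CpG in 300 bases, and the 555 in raised peaks a median of 18. The ratio of observed to expected CpG was 0.45 and 0.70 in turn, against 0.73 in the 583 windows of peaks that were not called and 0.38 over all 32817 RefSeq windows. Raised peaks thus had the same median CpG count (18) as peaks that were not called, and the lowered peaks were the poorer in CpG. These groups rest on calls with TMM scaling. By TMM, 5.6% of peaks with a CpG ratio of 0.6 or more at the start were lowered, and 19.6% of those below it. With the cyclic loess scaling described below, the shares were 16.9% and 20.9%, so much of this contrast depends on the scaling. The CpG-rich peaks were also the stronger ones, with a WT median of 26.2 CPM against 12. The Runx motif (TGTGGT, either strand) was present in 23.2% of the windows in lowered peaks, 9.73% in raised peaks, 14.2% in peaks that were not called and 16.8% of all windows. It was present in 20.1% of windows in no peak and 12.3% of those in promoter peaks. Other motifs differed too. The PU.1 motif was in 5.63% of windows in lowered, 2.52% in raised and 2.06% in uncalled peaks. The GC-rich SP/KLF motif went the other way, with 12.7%, 23.8% and 22.6%. These are descriptions of the windows with no test, and whole peak sequences were not analysed here.

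Library totals in peaks ran from 10502052 to 27890340 counts, with the lowest in replicate 2 of Idh2 R172K. Defining LSK genes were open: the strongest peak of Flt3 reached 77.7 CPM and that of Kit 64.8 CPM in WT, although the single peak of Ly6a, which encodes Sca1, had 1.19 CPM. Some marker genes of mature cells had no peak (Cd79a, Cd3g, Cd8a, Nkg7, Ly6g, S100a8, Hbb-bs and Hbb-bt). Others had peaks as strong as those of LSK genes: the strongest of Csf1r had 49.6 CPM, of Klf1 47.6, of Kdr 26.9 and of Pax5 25.6, against 24.9 for the LSK gene Cd34. Summed levels of marker peaks moved in R172K: LSK genes from 481 to 508 CPM in WT to 439 to 471 in R172K, B cell genes from 67.5 to 72.8 to 55.4 to 60.9, T and NK cell genes from 17.3 to 19.2 to 12.4 to 15.0, erythroid genes from 48.0 to 53.3 to 61.1 to 63.4, and stroma and endothelium genes from 106 to 116 to 93.3 to 98.8. Granulocyte and monocyte genes overlapped (102 to 115 and 99.4 to 112 CPM). The part of cell composition in the results that follow was not tested. In pooled cells, a change in how many cells have a site open and a change within each cell cannot be told apart.

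In WT, the peaks had a median of 5.34 CPM per kb of width, above intronic peaks at 10 to 50 kb (4.32) and over 50 kb (4.01), close to intergenic peaks within 10 kb of a start (5.12), and below promoter peaks (16.6). The strongest by this measure were in Ing1 (166 CPM per kb), a chromatin reader of the Sin3 complex, Sin3a (143), the scaffold of that complex, Fkbp2 (139), a prolyl isomerase, and Clec11a (134), a growth factor for bone and blood progenitors. Lrp8, Sap130, Mnt and Rnf138 followed, from 107 to 102 CPM per kb. In R172K these 8 had at most 1.21-fold their WT level. Ing1, Fkbp2 and Sap130 passed the test there with TMM but not with cyclic loess, a scaling that removes trends with peak strength. With loess the log2 fold change turned to -0.119 at Sin3a, -0.141 at Mnt and -0.058 at Fkbp2, and with loess Sin3a and Mnt passed the test as lowered (edgeR adjusted p = 0.00598 and 0.00994).

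Idh2 R172K changed these peaks far more than the other genotypes. Of 17549 tested peaks (196 were left out for low counts), 9017 passed the edgeR test at an adjusted p under 0.05, with 4119 raised (23.5%) and 4898 lowered (27.9%), where over all tested peaks of the table the share called was 53% (25.1% raised and 27.9% lowered). The share called in these introns is therefore near the background. With cyclic loess scaling 4496 were raised (25.6%) and 4436 lowered (25.3%), so the excess of lowered over raised peaks depends on the scaling. Losses were larger than gains: called losses had a median log2 size of 0.919 and called gains one of 0.488, and 12.5% of tested peaks fell more than 2-fold against 2.91% that rose more than 2-fold (background 13.2% and 3.63%). Directly against Idh2 R140Q, another allele of the same enzyme, 8026 differed (3577 higher and 4449 lower in R172K, 20.4% and 25.4% of those tested), and over all tested peaks the share was 47% (21.5% and 25.5%). With loess 4038 were higher and 4055 lower. Directly against Tet2 KO, 7574 differed (3397 higher and 4177 lower), and over all tested peaks the share was 44.3% (20.1% and 24.1%). With loess 3865 were higher and 3682 lower. Of the 7574, the peak 173 bp past the start of Fcho1, a gene of clathrin-mediated endocytosis, had 10.6 ± 2.03 CPM in R172K, 50.8 ± 6.05 in Tet2 KO and 48.7 ± 1.14 in WT (SD, n = 4 each). The peak in Inpp5b, a phosphoinositide phosphatase, had 27.5 ± 2.45 CPM in R172K and 12.3 ± 1.19 in Tet2 KO.

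The raised peaks with the smallest p in R172K lay in Arhgap45, Arap1, Dnajc16, Il9r, Sema4b, Adamts9, Ankrd27 and Cars. A peak in the last annotated intron of Arhgap45, a GTPase-activating protein of blood cells, had 2.69, 3.15, 2.96 and 3.12 CPM in WT and 18.7, 17.5, 15.9 and 16.1 CPM in R172K (chr10:80030219-80030719, mm10; log2 fold change 2.52 ± 0.12 SE, edgeR adjusted p = 3.71e-20). Each R172K library was above every library of the other genotypes, as the plot of 8 peaks by library shows. In Arap1, which regulates small GTPases, the level rose from 4.73 ± 0.732 to 19.7 ± 0.886 CPM (SD, n = 4 each). In Dnajc16, a J-domain protein gene, it rose from 2.14 ± 0.510 to 9.68 ± 0.986 CPM. Peaks in Il9r, the interleukin 9 receptor, and in Sema4b, a semaphorin, started higher, at 18.1 and 61 CPM, and rose 2.29-fold and 1.96-fold. Peaks in Adamts9, a matrix protease, Ankrd27, a Rab exchange factor, and Cars, the cysteine tRNA synthetase, rose between 2.17-fold and 2.46-fold. Of these 8 peaks, those in Arap1, Sema4b, Ankrd27 and Cars lie on chromosome 7, which carries Idh2 and 6.2% of the tested peaks. The Sema4b peak starts at 80191476 and the Idh2 peak ends at 80115707. The others lie farther from Idh2, with starts at 35588775 (Ankrd27), 101389064 (Arap1) and 143565217 (Cars). The part of the engineered allele in these values was not tested.

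The lowered peaks with the smallest p fell at least 4.02-fold. In Slc38a1, an amino acid transporter, WT libraries had 20.3, 17.9, 16.1 and 17.8 CPM and R172K libraries 1.08, 2.63, 1.48 and 1.18 CPM (chr15:96638164-96638553, mm10; log2 fold change -3.64 ± 0.14 SE, edgeR adjusted p = 2.24e-21). In Rab3gap2, a Rab regulator, the level fell from 9.49 to 0.785 CPM. In the zinc transporter gene Slc39a11 it fell from 18.7 ± 0.905 to 3.70 ± 0.752 CPM. Peaks in Tead3, a Hippo pathway transcription factor, Fam110a, Cpn1, a carboxypeptidase, and Sirt2, a deacetylase, fell between 4.02-fold and 6.41-fold. The Sirt2 peak also lies on chromosome 7, with its start at 28780861. The rule for naming peaks asked for groups that do not overlap, so their separation is no further result.

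**Figure D1:**
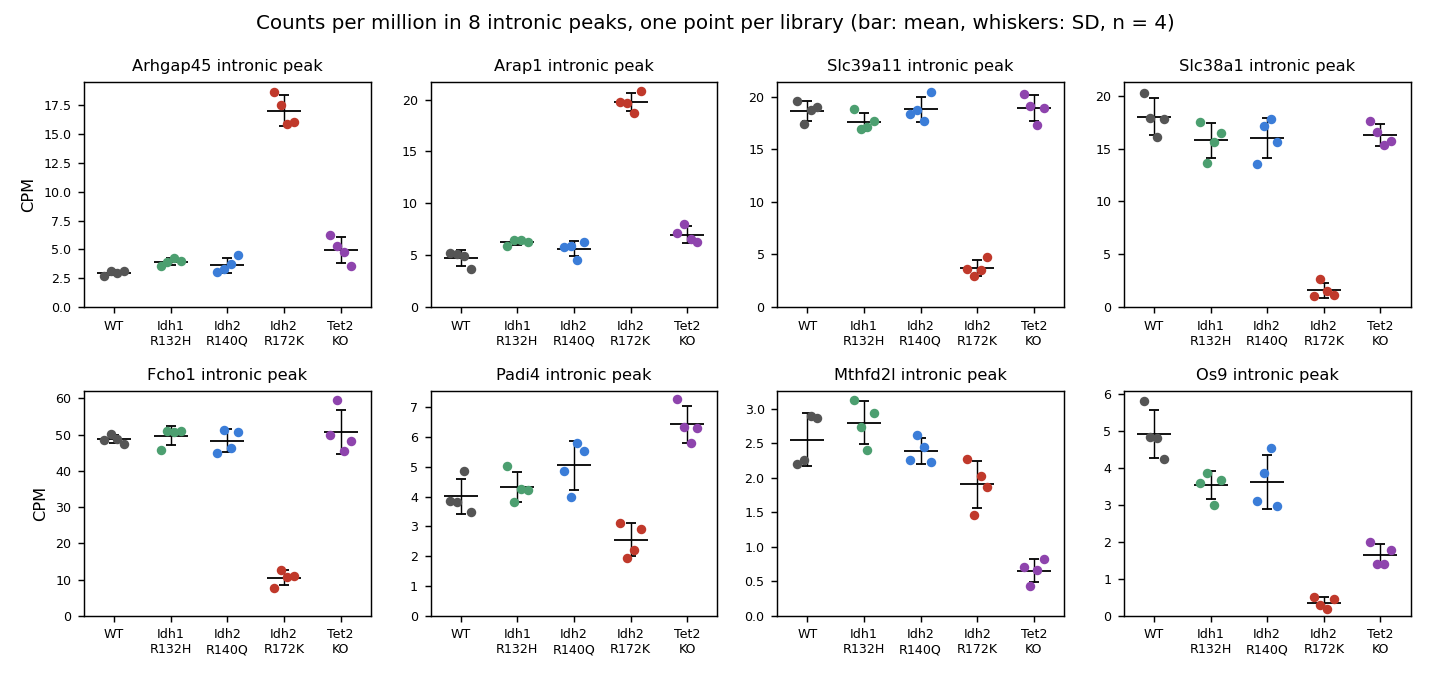
Normalised counts (CPM, vertical axis, linear, starting at 0) in 8 intronic peaks, by genotype (horizontal axis); points are libraries, bars means and whiskers SD over 4 libraries. Arhgap45 reached 15.9 to 18.7 CPM in Idh2 R172K, Slc38a1 fell to 1.08 to 2.63 CPM there, and Mthfd2l was lowest in Tet2 KO, at 0.438 to 0.826 CPM.

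Peaks of the same gene did not all move one way. In R172K, 1764 genes held at least 2 called peaks, of which 843 (47.8%) had both raised and lowered ones, 325 only raised and 596 only lowered. Raised and lowered calls were both common over all these peaks (4119 and 4898), so the count of mixed genes is a description and is not particular to them. Maml3 had 3 raised and 9 lowered of its 22, Fli1 2 and 5 of 16, and Runx2 3 and 5 of 16. Promoter peaks of the nearest genes are given beside these as a description. Where a peak was raised, a promoter peak of the nearest gene was raised in 48.4% of 1746 cases and lowered in 12%, and where it was lowered, a promoter peak was raised in 35.3% of 2232 cases and lowered in 22.7%. Beside peaks that were not called, these shares were 37.8% and 16.2%.

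Direction changed with distance from the start site. Of 1141 tested peaks up to 500 bp past the start, 41.7% were raised and 11.9% lowered in R172K, and of 10039 peaks more than 1000 bp downstream 21.4% were raised and 29.7% lowered. The near peaks were also the stronger ones in WT, with a median of 17.4 CPM against 2.54. With cyclic loess scaling the raised share no longer differed in this way (24.5% and 25.2%), whereas the lowered share was still smaller near the start (17.2% and 26.3%). Peaks that held a RefSeq start showed the same split, with 42.9% raised and 11.3% lowered by TMM and 24.4% and 18.6% by loess. Among those 1115, the 661 with a CpG ratio of 0.6 or more were lowered in 5.6% and the 454 below it in 19.6%, and with loess in 16.9% and 20.9%. Their raised shares were 45.4% and 39.2% by TMM, and the order turned to 20.1% and 30.6% by loess. The larger share of raised peaks near start sites therefore depends on the scaling.

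**Figure D2:**
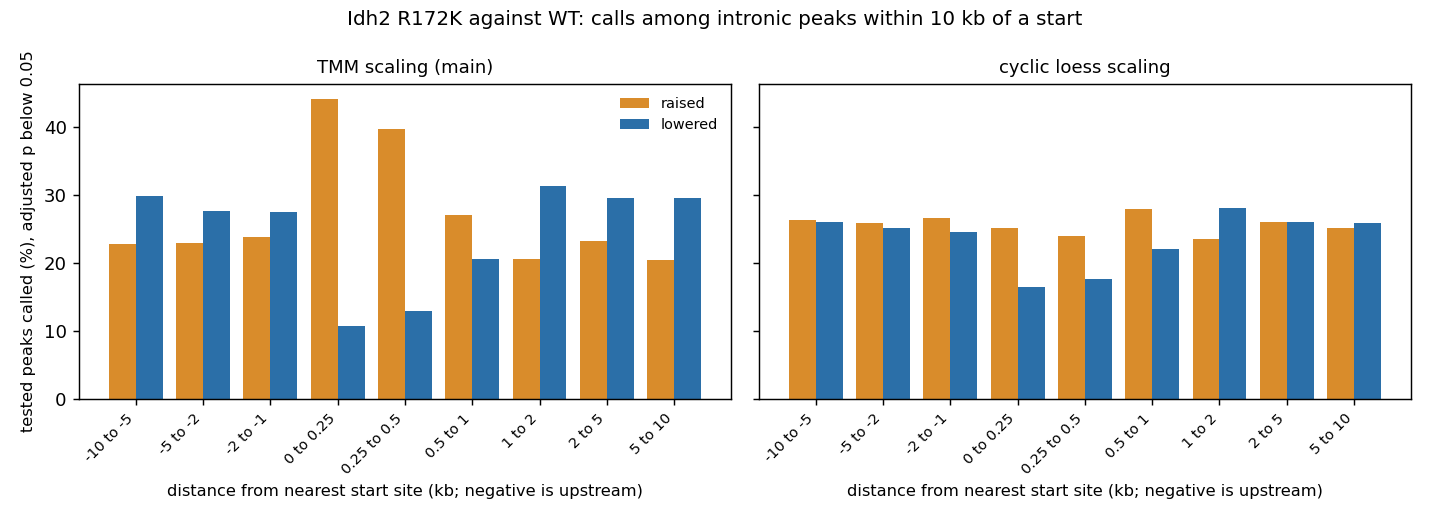
Share of tested intronic peaks called raised or lowered in Idh2 R172K against WT (vertical axis, %), by signed distance from the nearest start site (horizontal axis, kb), with TMM scaling on the left and cyclic loess on the right. The excess of raised peaks within 0.5 kb of the start (41.7% by TMM) is absent with loess (24.5%).

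Without any scaling factor, counts in these peaks can be set against other classes within each library. The share of all counts in peaks was 11.83 ± 0.101% in WT and 11.55 ± 0.111% in R172K (SD, n = 4 each), and the groups did not overlap. The difference of -0.28 percentage points had p = 0.0286 by an exact 2-sided permutation test, the smallest that 4 against 4 libraries can give, and 0.114 after adjustment over 4 comparisons. Relative to intronic peaks at 10 to 50 kb, counts in these peaks were higher in R172K by 0.068 on the log2 scale, and relative to promoter peaks the log2 ratio changed by -0.115, both with an exact permutation p of 0.0286 and 0.114 adjusted over 12 comparisons. Tet2 KO libraries were also apart from WT in the ratio to intergenic peaks within 10 kb, by 0.016, at the same p of 0.0286 by the exact permutation test and 0.114 adjusted. None of the 16 comparisons passed after adjustment. Taken over the median of log2(CPM + 0.5) in place of summed counts, the R172K difference against intronic peaks at 10 to 50 kb was -0.013. Its sign was thus the reverse of the 0.068 from summed counts. In the other 3 mutant genotypes the share of counts was 11.75% or 11.76%, and it overlapped WT.

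**Figure D3:**
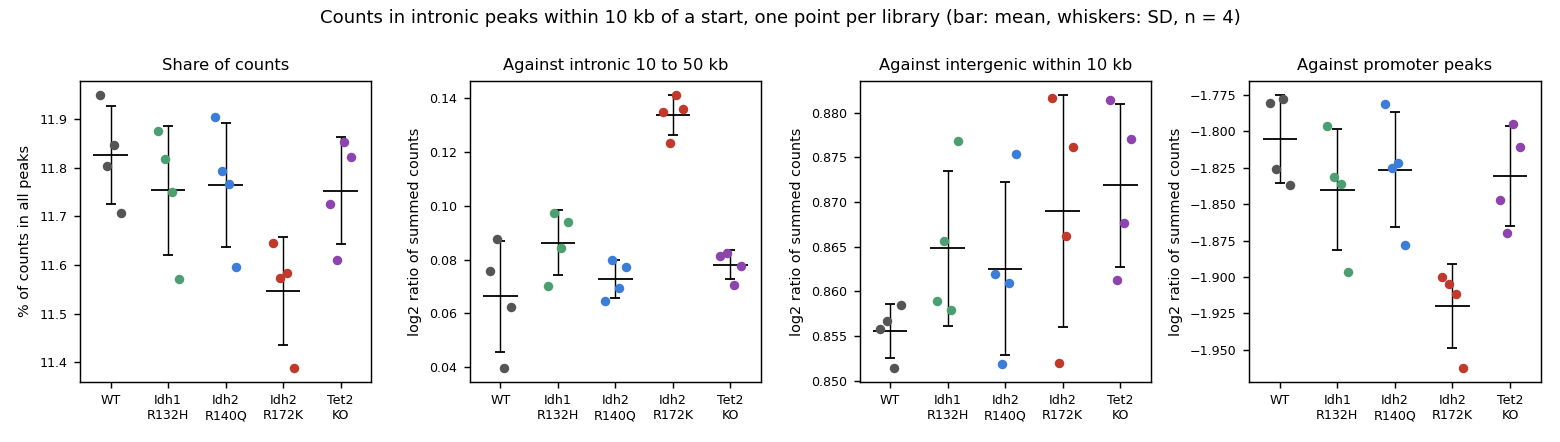
Counts in intronic peaks within 10 kb of a start, per library (points) with mean and SD over 4 libraries, as a share of all counts in peaks (left, %) and as the log2 ratio to counts in 3 other classes of peaks. The vertical axes do not start at 0. Idh2 R172K libraries lie outside the WT range for the share (11.39 to 11.65% against 11.71 to 11.95%) and for the ratios to intronic 10 to 50 kb and promoter peaks.

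The gene lists that follow are given beside 25.1% raised and 27.9% lowered over all tested peaks in R172K. No list was tested against these shares. Among regulators of stem and progenitor cells, 13 of 101 tested peaks were raised and 33 lowered in R172K, with a median log2 fold change of -0.11 beside -0.007 over all tested peaks of this kind. A peak in Hlf, a factor of stem cell identity, fell from 7.33 ± 0.566 to 3.25 ± 0.374 CPM, and one in Runx1 from 42.4 ± 1.95 to 26.3 ± 1.96 CPM (SD, n = 4 each). Megakaryocyte and platelet genes had 10 raised and 5 lowered of 27 (median 0.17), and the 2 with the smallest p, in Cd9, a tetraspanin, and Tubb1, the platelet beta-tubulin, were lowered, 3.04-fold and 2.27-fold. Erythroid and heme genes had 10 raised and 19 lowered of 41 (median -0.22). The housekeeping heme enzyme gene Alas1 fell from 8.28 ± 0.567 to 1.94 ± 0.229 CPM and Alad, the next enzyme of heme synthesis, from 3.26 ± 0.540 to 0.376 ± 0.110 CPM.

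Myeloid genes had 8 raised (20.5%) and 13 lowered (33.3%) of 39 (median -0.08), beside 25.1% and 27.9% over all tested peaks. The peak in Gfi1, a repressor in granulocyte development, was down 3.51-fold and that in Spi1, which encodes PU.1, down 2.67-fold. Lymphoid genes had 15 raised and 32 lowered of 86 (median -0.24), with Lsp1, a leukocyte actin-binding protein, down 3.53-fold and Ikzf1, Ikaros, down 2.39-fold. Mast cell, basophil and eosinophil genes had 6 raised and 7 lowered of 16. Hdc, the histamine-forming enzyme, was lowered 2.08-fold, and a peak 159 bp past a start in Slc18a2, a vesicular monoamine transporter, was raised 1.80-fold. Cytokine and Jak-Stat genes had 13 raised (25.0%) and 16 lowered (30.8%) of 52, near the shares over all tested peaks. There the peak in Il2rg, the common gamma chain, was raised 2.03-fold and that in Ifnar2, an interferon receptor chain, lowered 2.55-fold.

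Immediate early and AP-1 genes had 11 raised (31.4%) and 10 lowered (28.6%) of 35, beside 25.1% and 27.9% over all tested peaks. The peak in Bach1, a heme-regulated repressor, was down 5.09-fold and that in Klf7 down 2.64-fold. NF-kB and inflammatory genes had 5 raised and 12 lowered of 35, with Nfkb1 down 2.18-fold and the kinase gene Ripk2 down 2.19-fold. The genes of DNA methylation and of 2-oxoglutarate dioxygenases, the enzymes that 2-hydroxyglutarate inhibits, had 20 raised and 13 lowered of 63 (median 0.16). Kdm3b, a histone demethylase, was raised 2.52-fold and Phf2, another of that family, lowered 2.91-fold. Chromatin regulators had 17 raised and 10 lowered of 54. A strong peak in Nsd1, a histone methyltransferase, fell from 109 ± 4.36 to 56.1 ± 5.08 CPM. Hypoxia, p53 and cell cycle inhibitor genes had 9 raised (21.4%) and 10 lowered (23.8%) of 42, with Hk1, a hexokinase, down 4.83-fold and Vegfa up 2.08-fold. Genes of stroma and endothelium, cells outside the LSK gate, had 11 raised and 10 lowered of 36, with Cdh5, an endothelial cadherin, down 3.42-fold and Runx2 down 3.03-fold.

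**Figure D4:**
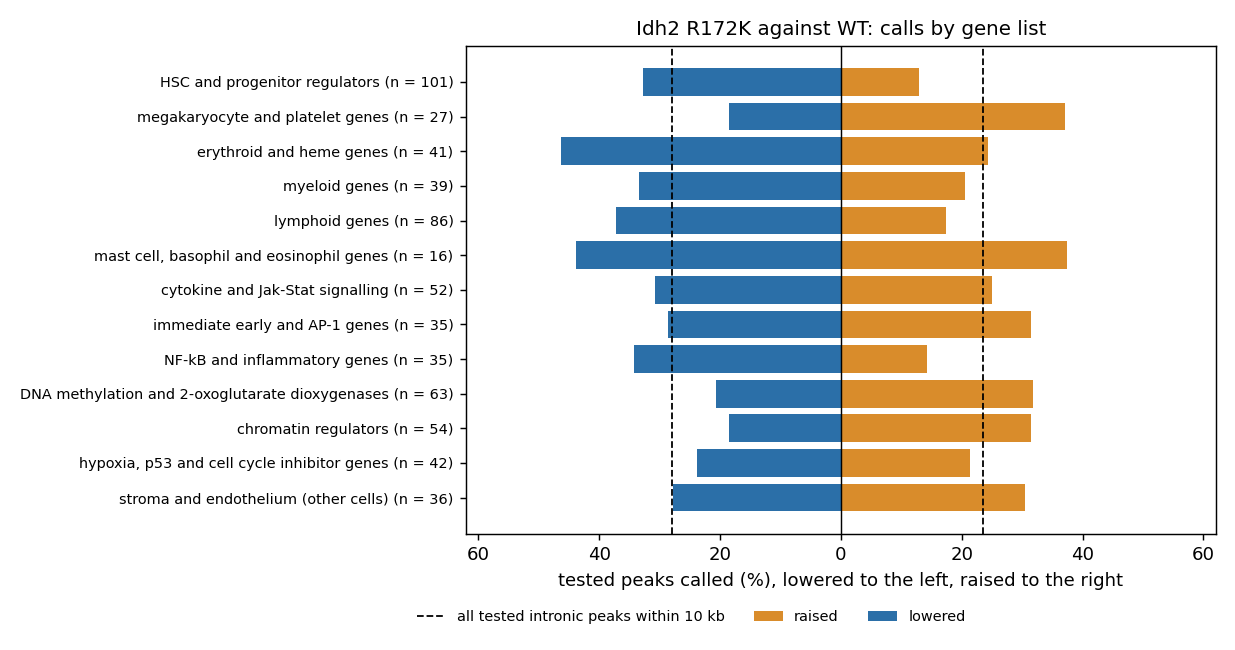
Share of tested intronic peaks called in Idh2 R172K against WT (horizontal axis, %; lowered to the left, raised to the right) for 13 gene lists (vertical axis, with the number of tested peaks). Dashed lines mark all tested intronic peaks within 10 kb, at 23.5% raised and 27.9% lowered. Erythroid and heme genes had 19 lowered of 41, and megakaryocyte and platelet genes 10 raised of 27.

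Tet2 KO libraries differed from WT at fewer peaks, mostly downwards. By edgeR 527 of 17549 passed the test, 112 raised (0.638%) and 415 lowered (2.36%), and over all tested peaks the share was 3.1% (0.785% raised and 2.32% lowered), so these introns again lay near the background. Called losses had a median log2 size of 0.791, and called gains one of 0.575. The count depended on single libraries: it was 303 without Tet2 KO replicate 3, 322 without WT replicate 2 and 338 without WT replicate 1. The raised count alone was 72 without Tet2 KO replicate 1, and 58 to 66 without each of those 3. Other runs gave more calls than 527: up to 584 on leaving out 1 library, and 923 with the replicate number as a block (226 raised, 697 lowered). Up to 500 bp past a start, 0.789% of peaks were lowered, against 2.58% of those more than 1000 bp downstream, and loess gave 0.876% and 2.56%. Of 25 genes with at least 2 called peaks, 20 had only lowered ones. Most calls were losses (415 of 527), so this count is a description and is not particular to these genes.

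Among the lowered peaks with the smallest p was one in Mthfd2l, an enzyme of mitochondrial folate metabolism. WT libraries had 2.20, 2.25, 2.89 and 2.87 CPM and Tet2 KO libraries 0.700, 0.438, 0.657 and 0.826 CPM (chr5:90949461-90949876, mm10; log2 fold change -1.92 ± 0.19 SE, edgeR adjusted p = 1.32e-08). In R172K the change at this peak was -0.35 (edgeR adjusted p = 0.0674), and the direct comparison of both mutants gave a difference of 1.56 (edgeR adjusted p = 4.52e-08). In Os9, a factor of protein quality control in the endoplasmic reticulum, the means were 4.91 ± 0.655 CPM in WT, 1.64 ± 0.297 in Tet2 KO and 0.357 ± 0.145 in R172K (SD, n = 4 each). Drosha, the nuclear microRNA processing enzyme, had 4.29 ± 0.546, 1.21 ± 0.202 and 0.500 ± 0.244 CPM in the same order. Os9 and Drosha were both lower in R172K than in Tet2 KO (edgeR adjusted p = 1.11e-08 and 0.000921). At Wdfy2, an endosomal protein gene, Tet2 KO and R172K both had 1.32 CPM against 3.76 in WT, and the difference between them was -0.02 ± 0.21 SE on the log2 scale. Dnah14, a dynein heavy chain, Srp68, a signal recognition particle subunit, the plexin gene Plxnc1 and Ubxn8 fell between 1.95-fold and 2.35-fold in Tet2 KO.

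Raised peaks in Tet2 KO were in Dop1b, Timd4, a phosphatidylserine receptor, Kyat1, Scube3, Padi4, Tle5, Arid3a and Arhgap45, from 1.44-fold to 2.53-fold. Padi4, which converts arginine to citrulline in histones, moved in opposite directions: 3.87, 3.81, 4.86 and 3.49 CPM in WT, 7.28, 6.33, 5.79 and 6.31 in Tet2 KO, and 3.12, 1.95, 2.22 and 2.93 in R172K. Tet2 KO lay above and R172K below every WT library, and the direct difference was -1.29 ± 0.14 SE (edgeR adjusted p = 4.14e-10). At Tle5, a Groucho family corepressor, Tet2 KO had 5.17 ± 0.302 CPM, WT 3.26 ± 0.409 and R172K 3.15 ± 0.425. Arhgap45 rose in both mutants, to 4.97 ± 1.14 CPM in Tet2 KO and 17.1 ± 1.32 in R172K.

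Tet2 KO calls in the gene lists are given beside the background of 3.1% of all tested peaks and 3.00% of these peaks. Stem and progenitor regulators had 1 raised, in Ldb1, the LIM domain cofactor of Gata and Scl complexes (13.2 ± 0.921 to 17.2 ± 1.27 CPM), and 2 lowered of 101, in Slamf1 (2.81 ± 0.470 to 1.48 ± 0.346 CPM) and Hlf. Both erythroid calls were losses, and the peak in Bcl11a, the fetal globin repressor, fell 2.08-fold. Lymphoid genes had 2 raised, in Pax5 and Foxp1, and 2 lowered of 86, in Tcf7 and Bach2. Hlf, Tcf7 and Bach2 lie outside the rule for naming and were added after their values were seen. NF-kB genes had 2 lowered of 35, in Tnfaip2 and Ikbkb. Among the rest, Cd9, Kdm2b, Hk1 and Bcl2l11 were lowered, and in stroma genes Pdgfrb was raised and Lepr lowered. In the myeloid, mast cell, cytokine and immediate early lists edgeR and DESeq2 called no peak, with 5, 3, 7 and 3 peaks at an unadjusted p under 0.05 by edgeR. Several of these calls did not hold in smaller sets of libraries. Those in Foxp1, Ikbkb, Pax5, Bcl2l11, Lepr, Tnfaip2 and Kdm2b were each lost on leaving out any of several WT or Tet2 KO libraries. The Hk1 call was lost without WT replicate 2. With DESeq2 the calls in Hlf, Bach2, Foxp1 and Ikbkb were lost. The highest edgeR or DESeq2 adjusted p over the alternatives was 0.178, at Bcl2l11.

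Idh1 R132H and Idh2 R140Q each changed 3 of 17549 tested peaks (0.0171%), beside 0.0274% and 0.0153% of all tested peaks. The Idh1 R132H count was 9 with the replicate number as a block, 9 with only the groups compared and 6 with a term for libraries of high or low signal in Xist, a gene active in females. All 3 in Idh1 R132H were on chromosome 1, which carries Idh1 and 7.84% of the tested peaks. The Klf7 peak, 1.07 Mb from Idh1, had 4.67, 4.87, 4.07 and 4.55 CPM in WT and 2.87, 2.56, 2.84 and 2.81 CPM in Idh1 R132H (log2 fold change -0.71 ± 0.12 SE, edgeR adjusted p = 0.00716). Il18r1, an interleukin 18 receptor chain 24.7 Mb away, fell from 10.2 to 6.94 CPM, and the Stk-ps2 peak, 19.1 Mb away, rose from 0.31 to 1.34 CPM. In Idh2 R140Q, 2 of the 3 were on chromosome 7, which carries Idh2 and 6.2% of the tested peaks. Akap13, a kinase-anchoring protein, lies 4.4 Mb from Idh2 and had 13, 13.1, 11.2 and 13.4 CPM in WT and 6.70, 6.30, 7.29 and 7.11 CPM in Idh2 R140Q (log2 fold change -0.89 ± 0.092 SE, edgeR adjusted p = 9.78e-08). Rlbp1, a retinoid-binding protein 0.718 Mb away, fell from 2.90 to 1.60 CPM. The third, Rab3gap2 on chromosome 1, fell from 9.49 to 6.40 CPM. Without single libraries the Idh2 R140Q count was 1 in 4 cases (WT replicates 1, 2 and 4, Idh2 R140Q replicate 4), 6 without Idh2 R140Q replicate 3 and 16 without replicate 2. The calls in Rlbp1 and Rab3gap2 were lost without WT replicate 1, 2 or 4 or Idh2 R140Q replicate 1 or 4, that in Il18r1 without WT replicate 1 or Idh1 R132H replicate 1, 3 or 4, and that in Klf7 without WT replicate 2. Mean levels in R172K, compared with the same WT libraries, were 1.29 CPM at Stk-ps2, 1.75 at Klf7, 2.46 at Il18r1, 6.17 at Akap13, 1.45 at Rlbp1 and 0.785 at Rab3gap2.

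The targeted genes held 1 such peak each, and a deletion or base change need not alter the level of a peak elsewhere in the gene. The Tet2 peak had 1.93, 2.09, 2.56 and 1.93 CPM in WT and 2.80, 2.09, 2.12 and 2.40 CPM in Tet2 KO (edgeR adjusted p = 0.666), so it does not check the knockout. It rose to 3.36 ± 0.344 CPM in R172K. The Idh2 peak, which spans the start site printed above, had 49.3, 53.8, 50 and 47.7 CPM in WT and 89.7, 85.3, 88.8 and 87.4 CPM in R172K (log2 fold change 0.81 ± 0.057 SE, edgeR adjusted p = 1.69e-15). In Idh2 R140Q its log2 fold change was 0.05 (edgeR adjusted p = 0.975). The R172K mice carry their engineered allele at this locus, and its part in the value was not tested. The Idh1 peak changed by 0.02 in Idh1 R132H (edgeR adjusted p = 1).

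At the 10000 bp limit, the 2 peaks just inside on the downstream side, at 9998 and 9999 bp, had 6.48 and 1.32 CPM in WT. Those just outside, both at 10004 bp, had 0.629 and 4.18 CPM. Upstream, the peaks at -9999 bp had 0.696 and 6.71 CPM, and those at -10002 and -10001 bp had 2.28 and 3.66 CPM.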

How the data were processed

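The authors deposited ATAC-seq read counts per peak for 20 libraries and an annotation of the 125343 peaks. Per the submitters' processing notes featureCounts, MACS2, BWA, Trim Galore, SAMtools and Picard were used, with build mm10, and no order or version is stated. In 4 columns the name gives Idh1 with the 140Q change. They were read as Idh2 R140Q, the only genotype with that change. Starts in the count table were 1 below those of the annotation, which were used.

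Counts were tested over all peaks with edgeR 4.0.16 (quasi-likelihood test, TMM, low-count filter, all 20 libraries) in R 4.3.3, with Benjamini-Hochberg adjustment and a threshold of 0.05. Standard errors are from that fit. Alternatives used DESeq2 1.42.0, or edgeR with offsets from the cyclic loess of limma 3.58.1. The edgeR script was tested on simulated data. Named genes are the first 8 raised and 8 lowered by p whose libraries do not overlap, up to 2 per gene list, the targeted genes, the 8 strongest peaks and those at the limit. Deposited identifiers were not paired with symbols, so RefSeq genes (GRCm38.p6) were used. Members and gene lists were chosen with earlier results of these data known, and the 0.6 CpG split after seeing the data. Motifs were sought only in RefSeq start windows. A few peaks that the rule names are not reported here.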

Additional observations from a re-analysis of the deposited data

Results flagged for a closer look

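In 20 of 475 groups of 4 libraries, 1 library stood far from the other three, and chance alone gives about 1 in 20. In Idh2 R140Q these were Stk-ps2 in replicate 1 (0.106 CPM), Dnajc16 in replicate 3 (2.20 CPM), Fam110a in replicate 3 (32.6 CPM), Sirt2 in replicate 3 (12.3 CPM), Ikzf1 in replicate 1 (11.8 CPM), Ripk2 in replicate 2 (10.5 CPM), Scube3 in replicate 1 (6.14 CPM), Slamf1 in replicate 3 (2.40 CPM), Bcl2l11 in replicate 2 (2.14 CPM) and Inpp5b in replicate 4 (13.6 CPM). In Idh2 R172K they were Gfi1 in replicate 2 (1.85 CPM), Bach1 in replicate 4 (2.31 CPM), Ubxn8 in replicate 2 (1.07 CPM) and the Idh1 peak in replicate 4 (88.2 CPM). In WT they were Wdfy2 in replicate 3 (2.56 CPM) and Srp68 in replicate 3 (6.50 CPM). In Tet2 KO it was Tnfaip2 in replicate 4 (19.2 CPM). In Idh1 R132H they were Fcho1 in replicate 1 (45.8 CPM), Prim2 in replicate 2 (1.20 CPM) and an unnamed peak on chromosome 19, just inside the distance limit, in replicate 2 (7.46 CPM).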

How the results depend on the processing

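Of 144 called values of named peaks, 122 kept their call under every alternative run. Among 4045 alternative values of named peaks, 91 lost the call, 27 gained it and 3924 stayed as they were, called or not called. A change of sign without a call in either run was counted among the 3924. The other 3 changed sign with a call in at least 1 of the runs, all with cyclic loess in R172K (Sin3a -0.119, Mnt -0.141, Fkbp2 -0.058). DESeq2 called 70 raised peaks in Tet2 KO. With the replicate number as a block, calls were 9 in Idh1 R132H and 923 in Tet2 KO (226 raised, 697 lowered). The labels do not say what libraries with the same number share, and the main fit had no term for the number. Same-number correlations ran from -0.079 to 0.300. Every Idh1 R132H and Idh2 R140Q library correlated best with its own number, while R172K replicate 3 and Tet2 KO replicate 4 did not. With a term for libraries of high or low signal in Xist, Idh1 R132H had 6 calls. With only the groups compared it had 9, and Idh2 R140Q 1. Below 5000 bp, where fewer peaks are tested, calls were 1 in Idh1 R132H, 1 in Idh2 R140Q, 4767 in R172K (2339 raised, 2428 lowered), 256 in Tet2 KO (57, 199), 4010 for R172K against Tet2 KO (1891, 2119) and 4214 against Idh2 R140Q (1978, 2236). With medians of log2(CPM + 0.5) the R172K difference was -0.013 against intronic 10 to 50 kb and -0.037 against intergenic peaks. Leaving out 1 library gave 2 to 4 calls in Idh1 R132H, 1 to 16 in Idh2 R140Q, 7953 to 8797 in R172K (3549 to 3999 raised, 4404 to 4798 lowered) and 303 to 584 in Tet2 KO (58 to 125 raised, 237 to 466 lowered). It gave 6487 to 7310 against Tet2 KO and 6956 to 7781 against Idh2 R140Q. For Idh2 R140Q the log2 ratio to intronic 10 to 50 kb peaks ran from -0.003, without WT replicate 3, to 0.013. With 4 libraries a group the smallest permutation p is 0.0286.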
